A study of Mus musculus with 6 samples.

Results

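Gluconeogenesis, the making of new glucose by the liver, was followed through 8 genes in 6 RNA-seq libraries of primary mouse hepatocytes. G6pc, Slc37a4, Fbp1, Pck1 and Pcx encode enzymes and a transporter of gluconeogenesis. Ppargc1a, Foxo1 and Sirt1 encode regulators of their transcription. The 8 genes were chosen by name among the 25184 genes in the deposited count table, and all 8 were counted in every library. The libraries came from 3 Sucnr1 fl/fl mice (replicates 1, 2 and 3) and 3 Hep-Sucnr1 KO mice (replicates 3, 4 and 5). The libraries are called control 1, 2 and 3 and KO 3, 4 and 5 after these numbers. In both genotypes the 2 alleles of Sucnr1, which encodes the receptor for succinate, are floxed. Hep-Sucnr1 KO mice also carry 1 copy of an Alb-Cre transgene, in which the albumin promoter drives the recombinase in hepatocytes, and the controls carry none. The mice were fed chow, and their age and sex are not stated for these libraries. Hepatocytes of the left lateral lobe were kept overnight on collagen in a medium with high glucose, pyruvate, glutamine and serum, for which no added hormone is named, and were harvested from it directly. Of each genotype, 1 library was extracted on day 1 (control 1 and KO 3) and 2 of each on day 2. The libraries also fall into 2 index series, 1 with controls 1 and 2 and the other with control 3 and the 3 KO libraries.

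Gluconeogenesis makes glucose from lactate, alanine, glycerol and other precursors, and supplies the body between meals. It runs glycolysis backwards except at the irreversible steps, which it bypasses with other enzymes. These are pyruvate carboxylase (Pcx), cytosolic phosphoenolpyruvate carboxykinase (Pck1), fructose-1,6-bisphosphatase (Fbp1) and the catalytic subunit of glucose-6-phosphatase (G6pc). The transporter encoded by Slc37a4 delivers the substrate of glucose-6-phosphatase. In fasting, glucagon and cAMP raise the transcription of Ppargc1a, whose product PGC-1α coactivates the forkhead factor FOXO1 at these genes, insulin drives FOXO1 out of the nucleus, and the deacetylase SIRT1 acts on both proteins.

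Library totals ran from 30504248 to 38770694 counts. Levels are given as CPM, the counts scaled with TMM factors to a common library size, and genotypes were compared as the log2 fold change, KO over control, from a model with extraction day. Of the 15105 genes tested, 0 passed an adjusted p of 0.05 by the quasi-likelihood test of edgeR and the Benjamini-Hochberg method (0.0%), and 563 (3.73%) had an unadjusted p below 0.05 (1.81% as lower and 1.91% as higher in KO hepatocytes). DESeq2 called 13 genes (0.0861%), and 0 of the 8 genes were among them. It gave no adjusted p for Ppargc1a, Foxo1, Sirt1 or Sucnr1, so these could not be called. Sucnr1 itself had 258, 118 and 103 counts in controls 1, 2 and 3 and 84, 28 and 5 counts in KO 3, 4 and 5. Every KO library was below every control, but replicates 3, 4 and 5 still had 39.6, 23.8 and 4.37% of the mean Sucnr1 CPM of the controls of the same extraction day. The hepatocyte markers Alb, Apoa1, Ttr, Trf, Ahsg, Cps1, Serpina1c and Fgb summed to between 80102 and 120021 CPM in each library. The library of KO 4 stood apart in zonation markers, with a sum of 5981 CPM for the pericentral list (Glul, Cyp2e1, Oat, Cyp1a2, Slc1a2, Lhpp, Rgn) against 1518 to 3410 CPM in the other 5 libraries.

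Sequences upstream of 4 of the genes are shown for context: Ppargc1a, the gene that differed most between genotypes, Pck1 and Fbp1, the enzymes with the highest correlation across libraries, and G6pc, the enzyme of the last step. They are RefSeq sequences of GRCm38.p6, printed 5′ to 3′ on the strand of the gene, and all 8 genes had a promoter window in that set. Capitals mark TGACG, the core of the cAMP response element, read on the opposite strand in Ppargc1a and Pck1, and TGTTTGC, a forkhead motif, in G6pc.
Ppargc1a, chr5:51567727-51567975, minus strand: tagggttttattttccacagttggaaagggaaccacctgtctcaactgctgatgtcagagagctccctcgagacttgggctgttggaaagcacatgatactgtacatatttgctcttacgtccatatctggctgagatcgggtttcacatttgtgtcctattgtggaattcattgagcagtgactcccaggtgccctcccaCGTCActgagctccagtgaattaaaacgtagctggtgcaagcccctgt
Pck1, chr2:173152823-173153047, plus strand: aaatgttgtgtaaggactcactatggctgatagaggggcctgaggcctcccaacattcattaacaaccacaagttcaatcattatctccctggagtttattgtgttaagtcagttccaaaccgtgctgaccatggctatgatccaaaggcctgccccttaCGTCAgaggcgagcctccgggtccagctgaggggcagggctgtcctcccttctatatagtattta
Fbp1, chr13:62888283-62888532, minus strand: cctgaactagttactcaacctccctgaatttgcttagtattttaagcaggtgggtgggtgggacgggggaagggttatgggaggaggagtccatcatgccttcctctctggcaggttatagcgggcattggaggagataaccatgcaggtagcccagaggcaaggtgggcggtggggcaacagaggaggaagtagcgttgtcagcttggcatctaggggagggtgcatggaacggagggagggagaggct
G6pc, chr11:101367563-101367592, plus strand: tcaccctgaacaTGTTTGCatcaacctact
The capitals in Ppargc1a lie 49 to 45 bases and those in Pck1 90 to 86 bases before the RefSeq start of the gene, and those in G6pc 141 to 135 bases before it. The G6pc stretch lies inside the first exon of the GENCODE model, whose start is further upstream. On either strand, TGACG was in 17.8% of the 32851 promoter windows of all genes, each the 250 bases before a start, and in 5 of the 11 windows of the 8 genes (those of Pck1, Ppargc1a and Sirt1 and 2 of Slc37a4). TGTTTGC was in 4.30% of all windows and, among the 8 genes, in that of G6pc. The palindrome TGACGTCA, which contains TGACG, was in 1.55% of all windows, the forkhead motif TGTTTAC in 3.17% and TGTTCT, the core of the glucocorticoid receptor element, in 16.1%, and each was in 0 of the 11.

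The 8 genes spanned a wide range of abundance. Per kilobase of exon, Fbp1 had the highest level, with 336 ± 44.6 CPM per kilobase (SD, n = 6 libraries), followed by Pck1 with 216 ± 32.2, Pcx with 101 ± 9.52 and G6pc with 50.7 ± 10.8. Slc37a4 had 18.1 ± 2.81 CPM per kilobase, so the 5 genes of the pathway all exceeded the 3 regulators in every library. Foxo1 had 4.01 ± 0.65 and Sirt1 3.94 ± 0.51 CPM per kilobase, and Ppargc1a came last with 0.40 ± 0.13. Fbp1 thus stood at percentile 99.1 of the genes tested and Ppargc1a at percentile 22.8. Foxo1 and Sirt1 were the only neighbours in this order whose ranges over the 6 libraries overlapped, with Foxo1 the higher in 4 of 6. With the coding length in place of the exon length the order was the same, but the ranges of Fbp1 and Pck1 and those of Pcx and G6pc overlapped and those of Foxo1 and Sirt1 did not.

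**Figure D1:**
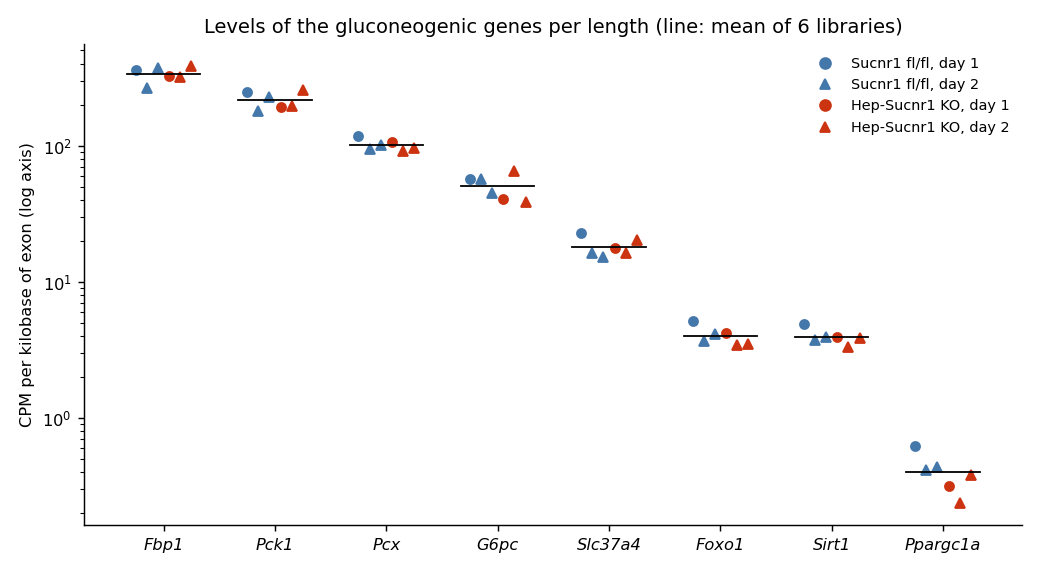
Levels of the 8 gluconeogenic genes in CPM per kilobase of exon on a log axis, one point per library (blue, control; red, KO; circles, day 1; triangles, day 2), with the mean of the 6 libraries as a line. Fbp1 is highest at 336 and Ppargc1a lowest at 0.40 CPM per kilobase, and the ranges of Foxo1 and Sirt1 overlap.

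The enzymes and the transporter did not separate the genotypes. G6pc (ENSMUSG00000078650, chromosome 11 of GRCm38 from 101367561 to 101377903), whose product releases glucose from glucose-6-phosphate, measured 138, 138 and 109 CPM in controls 1, 2 and 3 and 97.7, 158 and 93.4 CPM in KO 3, 4 and 5. KO 4 had the highest level of the 6 libraries and the other KO libraries the lowest levels. The means were 128 ± 16.7 CPM in control and 116 ± 36.2 CPM in KO hepatocytes (SD, n = 3 each), and the log2 fold change was −0.15 (standard error 0.23, 95% interval −0.70 to 0.40, edgeR adjusted p = 0.998). The coefficient of variation was 31.1% among KO and 13.0% among control libraries. The value rested on single libraries: the log2 fold change was −0.45 (unadjusted p = 0.0291, adjusted p = 0.999, edgeR) without KO 4, the library with the high pericentral sum, whose part in the result was not tested. It was 0.03 without control 1, 0.02 without KO 3 and −0.0010 without KO 5.

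Slc37a4 (ENSMUSG00000032114, chromosome 9 from 44396852 to 44402968), which carries glucose-6-phosphate into the endoplasmic reticulum to G6pc's product, had 64.8, 46.4 and 43.6 CPM in the control and 50.9, 46.9 and 57.6 CPM in the KO libraries, in the same order of replicates. The KO values all fell within the range of the controls. The means were 51.6 ± 11.5 and 51.8 ± 5.40 CPM (SD, n = 3 each) and the log2 fold change was 0.03 (standard error 0.15, 95% interval −0.34 to 0.39). The ratio of G6pc to Slc37a4 in a library, a measure chosen after their values had been seen, ran from 0.70 to 1.75 on the log2 scale, both extremes being KO libraries (replicates 5 and 4). Its mean was 0.20 lower in KO hepatocytes, on the log2 scale (two-sided exact permutation test, p = 0.7, where 3 mice against 3 cannot give less than 0.1).

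Fbp1 (ENSMUSG00000069805, chromosome 13 from 62864753 to 62888282), which removes a phosphate from fructose-1,6-bisphosphate, had 610, 449 and 633 CPM in the control libraries and 549, 539 and 655 CPM in the KO libraries. Both the lowest value, in control 2, and the highest, in KO 5, came from day 2. The log2 fold change was 0.04 (standard error 0.18, 95% interval −0.39 to 0.48), and without control 2 it was −0.11. Pck1 (ENSMUSG00000027513, chromosome 2 from 173153048 to 173159273), which turns oxaloacetate into phosphoenolpyruvate, had 849, 615 and 778 CPM in the control and 655, 672 and 881 CPM in the KO libraries. As for Fbp1, control 2 was lowest and KO 5 highest. The means of 748 ± 120.0 and 736 ± 126 CPM (SD, n = 3 each) differed by a log2 fold change of −0.02 (standard error 0.19, 95% interval −0.48 to 0.44). Pcx (ENSMUSG00000024892, chromosome 19 from 4510472 to 4621752), which carboxylates pyruvate to oxaloacetate in mitochondria, varied least of the 8, at 557, 447 and 479 CPM in the control and 502, 434 and 457 CPM in the KO libraries. Its log2 fold change was −0.09 (standard error 0.12, 95% interval −0.38 to 0.20). All 5 intervals included 0, and the widest reached from a fold of 0.618 to one of 1.32 (G6pc), so changes of that size were not detectable here.

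**Figure D2:**
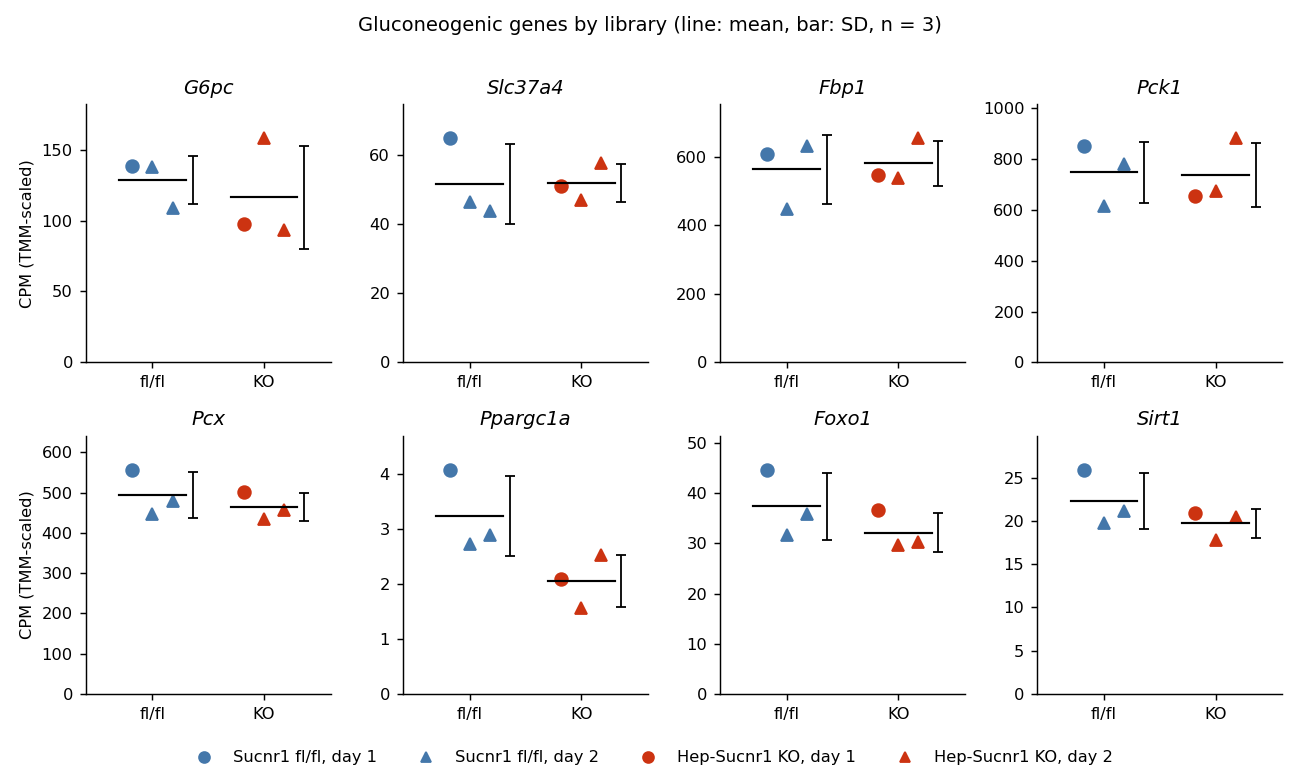
CPM of each of the 8 genes by genotype, on axes that start at 0, with one point per library (circles, day 1; triangles, day 2), the mean as a line and the SD as a bar (n = 3). The genotypes overlap for 7 of the genes, and for Ppargc1a the 3 KO libraries, at 1.57 to 2.52 CPM, sit below the 3 controls, at 2.74 to 4.08 CPM.

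Among the regulators, Ppargc1a (ENSMUSG00000029167, chromosome 5 from 51454250 to 51567726) was the gene with the largest difference. Its counts were 157, 91 and 88 in controls 1, 2 and 3 and 66, 53 and 83 in KO 3, 4 and 5. Scaled, this was 4.08, 2.74 and 2.90 CPM against 2.09, 1.57 and 2.52 CPM. Every KO library was below every control, which held for 1 of the 8 genes and for 4.04% of all genes tested (10.6% in either direction). For 0 of the 8 was every KO library above every control (6.54% of all genes). The means were 3.24 ± 0.735 and 2.06 ± 0.478 CPM (SD, n = 3 each), and p was 0.1 in the exact permutation test, which cannot go lower. The fold was 0.644 (95% interval 0.421 to 0.986) and the log2 fold change −0.63 (standard error 0.26). Its p was 0.0445 unadjusted and 0.998 adjusted over all genes tested (edgeR), so the difference failed the correction. Of the 8 genes it was the only one with an unadjusted p below 0.05, a level that 1.81% of all genes passed as lower in KO. Without a model, the plain difference of mean log2 CPM was −0.95 on day 1, from a single library per genotype, and −0.49 on day 2. The fitted log2 fold change was −0.90 (unadjusted p = 0.00950, edgeR) without KO 5. When any other library was dropped it lay between −0.71 and −0.47, with unadjusted p from 0.0560 to 0.208. Without either day 1 library it was −0.47, since the day 1 library that then remains has no partner in the model.

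Foxo1 (ENSMUSG00000044167, chromosome 3 from 52268336 to 52353221) measured 44.7, 31.7 and 35.8 CPM in the control and 36.6, 29.7 and 30.2 CPM in the KO libraries. The genotypes overlapped over both days, since KO 3, from day 1, lay above the controls of day 2. Within each day the KO libraries were below the controls. The values were 36.6 against 44.7 CPM on day 1, then 29.7 and 30.2 against 31.7 and 35.8 CPM on day 2. How many of all genes tested show this order was not counted, so it is no test of the genotype. Over both days p was 0.3 for Foxo1 in the exact permutation test. The log2 fold change was −0.21 (standard error 0.10, 95% interval −0.46 to 0.04, unadjusted p = 0.0821 in edgeR), and −0.27 (unadjusted p = 0.0473) without control 2. Sirt1 (ENSMUSG00000020063, chromosome 10 from 63319005 to 63381704) had 25.9, 19.8 and 21.1 CPM in the control and 20.9, 17.8 and 20.5 CPM in the KO libraries. Its genotypes overlapped, and its log2 fold change was −0.17 (standard error 0.12, 95% interval −0.45 to 0.11, unadjusted p = 0.197 in edgeR). Counted over the 8 genes, 6 had a log2 fold change below 0, against 49.5% of all genes tested, and the median was −0.12, against 0.00 over all genes. The median rested on the day 1 libraries: it was −0.015 without control 1 and −0.024 without KO 3 or with day 2 alone, and between −0.15 and −0.10 without any other library. The number below 0 ran from 4 to 8 with a library left out.

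The 2 extraction days, like the 2 index series, are a further difference between the libraries. Of the 8 genes, 7 had lower fitted levels on day 2 than on day 1 (46.7% of all genes did), with a median log2 difference of −0.23. In lists described below, so did 8 of 9 enzymes shared with glycolysis (median −0.19) and 8 of 9 glycolytic genes (−0.17). It also held for 6 of 8 other genes under fasting or FOXO1 control (−0.23), but for 8 of 16 substrate entry genes. Foxo1 was 0.35 lower on day 2 on the log2 scale (log2 difference −0.35, standard error 0.11, unadjusted p = 0.0153, adjusted p = 0.548, edgeR), and without control 1 its unadjusted p was 0.137 (log2 difference −0.29). It was the only one of the 8 with an unadjusted p below 0.05 for the day (7.49% of all genes passed, and 2.33% as lower on day 2). Each day 2 library lay below both day 1 libraries for Foxo1 and Pcx, as for 6.29% of all genes (14.8% with separate days in either direction). DESeq2 called 1.5% of all genes for the day. The day differences were −0.30 for Ppargc1a, −0.25 for Slc37a4, −0.24 for Sirt1, −0.22 for Pcx, −0.03 for Pck1 and Fbp1 and 0.09 for G6pc. Without control 1 that of Ppargc1a was −0.03 and that of Sirt1 −0.13. Day 1 held 2 libraries, of which control 1 had the highest level of Pcx, Slc37a4, Ppargc1a, Foxo1 and Sirt1. Markers of other cells also had fitted day differences. Kupffer cell markers were higher on day 2 in 8 of 8 cases (median log2 difference 2.06, 5 with an unadjusted p below 0.05, edgeR). Neutrophil and erythroid markers were higher in 5 of 5 (median 1.55, 2 below 0.05), whereas stellate cell markers were lower in 6 of 6 (median −0.91, 2 below 0.05). The summed levels overlapped between the days. Control 2, from day 2, lay below control 1, from day 1, in the Kupffer sum (28.5 and 33.2 CPM). The same held for the neutrophil and erythroid sum (2.47 and 4.58 CPM). In the stellate sum KO 3, from day 1, at 12.3 CPM lay below control 2 and KO 5, at 14.4 and 14.8 CPM. Sinusoidal endothelial markers were lower on day 2 in 8 of 8 cases (median −0.24, 0 below 0.05). Their sums overlapped between the days, at 48.1 and 21.5 CPM in control 1 and KO 3 and 26.1 to 34.5 CPM on day 2. The pericentral list was higher on day 2 in 7 of 7 cases (median 0.57, 0 below 0.05). Its sums overlapped too, at 2295 and 2466 CPM on day 1 and from 1518 (KO 5) to 5981 CPM (KO 4) on day 2. None of these lists held a gene past the adjusted threshold in edgeR, and their part in the day differences was not tested. The genotype effect did not differ detectably between the days: the interaction was largest for Slc37a4, at 0.56 (unadjusted p = 0.0860, adjusted p = 0.9997, edgeR). Its plain difference of mean log2 CPM between genotypes was −0.35 on day 1 and 0.21 on day 2. An unadjusted p below 0.05 for the interaction was reached by 0 of the 8 genes and by 3.69% of all genes.

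**Figure D3:**
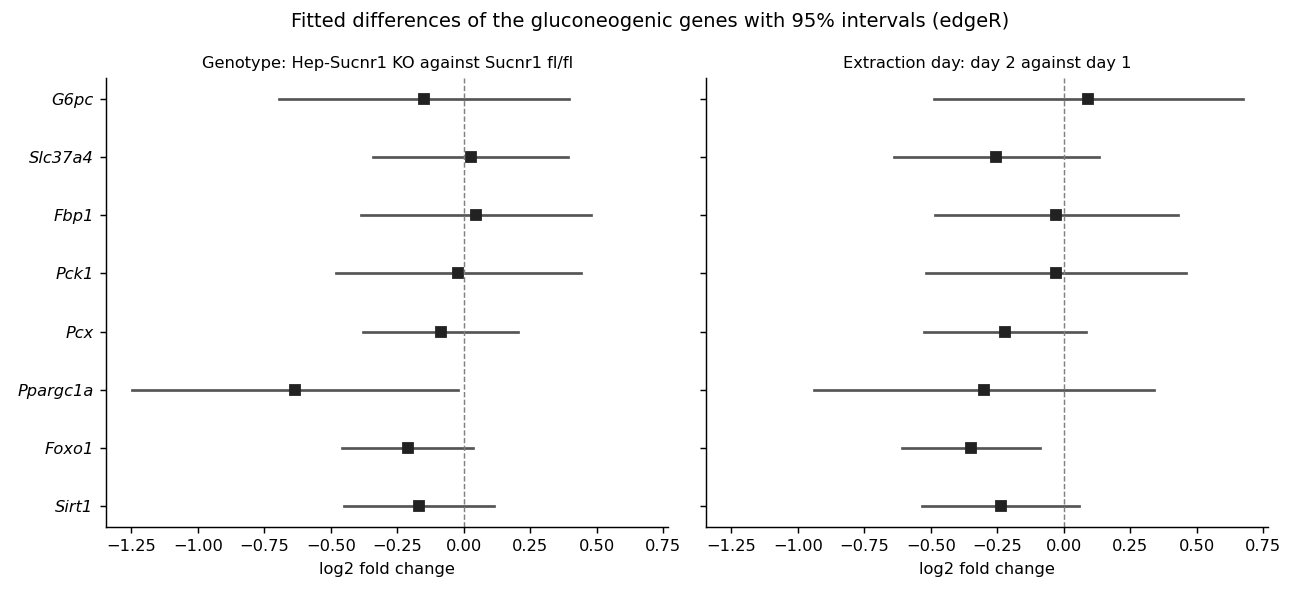
Fitted log2 fold changes of the 8 genes for genotype (left) and extraction day (right), with 95% intervals as lines. For genotype the interval excludes 0 for Ppargc1a alone (−1.25 to −0.02), and for day it excludes 0 for Foxo1 alone (−0.61 to −0.09), before adjustment for the number of genes.

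The levels of the 8 genes were also correlated with each other across the 6 libraries. Within a genotype, the SD of log2 CPM ran from 0.14 for Pcx to 0.33 for G6pc, against a median of 0.24 over all genes. Of the 28 pairs of genes, 22 had a positive Pearson r of log2 CPM, 5 an unadjusted p below 0.05 and 0 an adjusted p below 0.05 (exact permutation tests over n = 6 libraries, Benjamini-Hochberg over the 28 pairs). Pcx, the pyruvate enzyme, followed Foxo1 with r = 0.98 (rho = 0.94, exact permutation p = 0.00556 for r and 0.0167 for rho, adjusted p = 0.0519 and 0.233) and Sirt1 with r = 0.95 (rho = 0.94, exact permutation p = 0.00278 and 0.0167, adjusted p = 0.0519 and 0.233). Without control 1 and KO 4, the libraries farthest from the median, r was 0.88 and 0.80. Foxo1 and Sirt1 had r = 0.92 (rho = 0.89, exact permutation p = 0.00556 and 0.0333, adjusted p = 0.0519 and 0.233) and 0.70 without these libraries. Control 1 was the highest and KO 4 the lowest library for all 3. These correlations include the difference between the days, which separated fully for Pcx and Foxo1. Within the 4 libraries of day 2, r was 0.87 for Pcx and Foxo1, 0.92 for Pcx and Sirt1 and 0.71 for Foxo1 and Sirt1, and day 1, with 2 libraries, gives no value.

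Pck1 and Fbp1, the most abundant genes, had r = 0.90 (rho = 0.89, exact permutation p = 0.0153 and 0.0333, adjusted p = 0.107 and 0.233). For this pair r was 0.93 without the 2 libraries farthest from the median and 0.95 within day 2. Ppargc1a and Sirt1 had r = 0.90 (rho = 0.77, exact permutation p = 0.0403 and 0.103, adjusted p = 0.226 and 0.576), but −0.19 without control 1 and KO 4, so that relation rests on these 2 libraries (r = 0.94 within day 2, KO 4 included). Of the 7 correlations of G6pc 6 were negative, from −0.51 with Fbp1 to 0.00 with Foxo1, but without KO 4 and KO 5, the libraries farthest from its median, 6 of the 7 were positive, from 0.06 with Pcx to 0.75 with Ppargc1a, and that with Fbp1 was −0.33. The negative sign thus rests on these 2 libraries. Within day 2, both included, all 7 were negative, from −0.89 with Pck1 to −0.30 with Foxo1. Its highest library, KO 4, was the lowest of the 6 for Ppargc1a, Pcx, Foxo1 and Sirt1. All these correlations share the same 6 libraries and the same scaling, and with DESeq2 size factors they moved by at most 0.12.

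**Figure D4:**
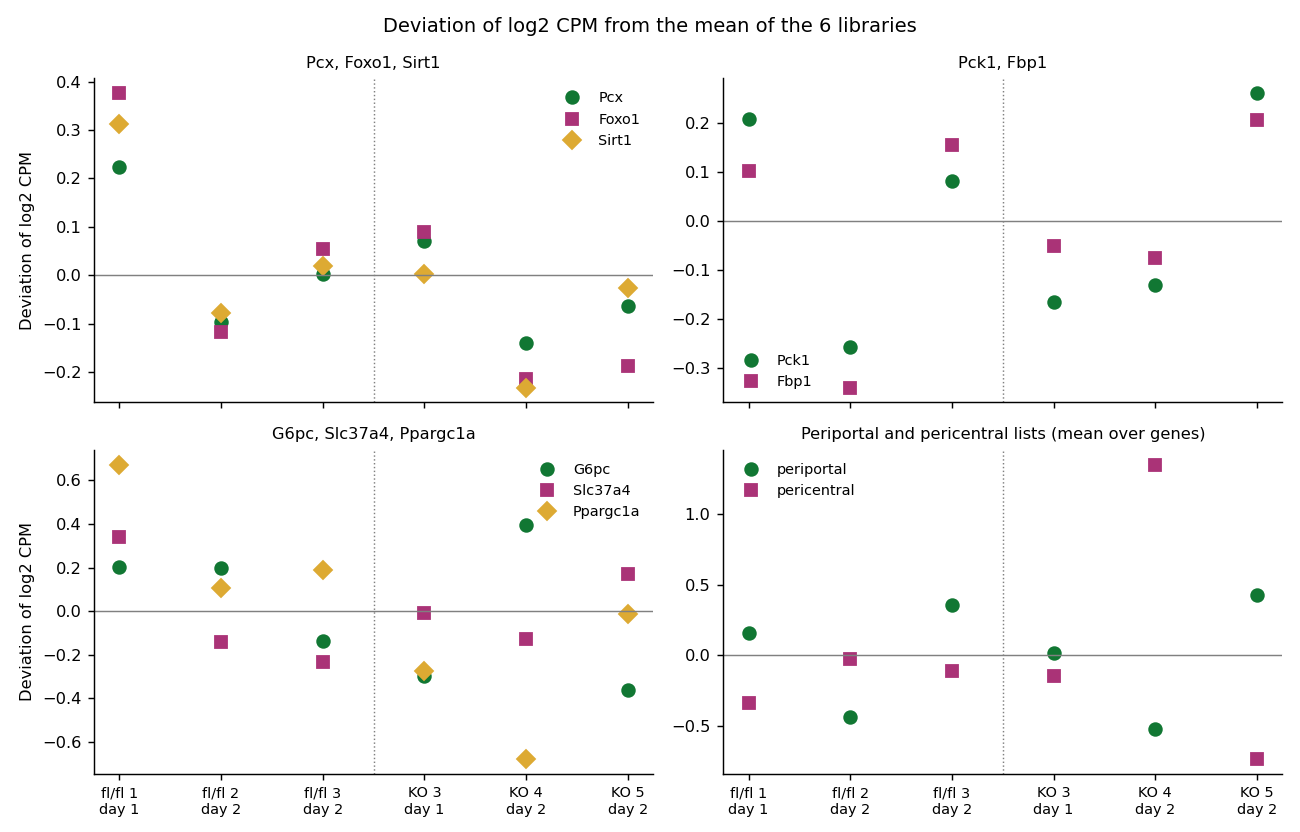
Log2 CPM of each gene relative to its own mean over the 6 libraries, one point per gene and library, with the genotypes parted by a dotted line and a scale of its own in each panel. Pcx, Foxo1 and Sirt1 share their highest and lowest library, Pck1 and Fbp1 share theirs, and G6pc is highest (0.40) in KO 4, where the pericentral list stands at 1.35 and the periportal list at −0.52.

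Gluconeogenesis is a periportal function of the liver lobule, and lists of zonation markers were set beside the genes as the mean deviation of log2 CPM over each list. The 16 relations of the 8 genes with the periportal list (Cyp2f2, Hal, Sds, Gls2, Hsd17b13, Aldh1b1, Ass1) and the pericentral list gave 0 adjusted p below 0.05. Fbp1 had r = 0.87 with the periportal list (rho = 0.94, exact permutation p = 0.0167 for each, adjusted p = 0.267 for each), and r was 0.96 without KO 4 and control 2 and 0.87 within day 2. Pck1 had r = 0.82 with that list (rho = 0.77, exact permutation p = 0.0611 and 0.103, adjusted p = 0.326 and 0.350) and 0.74 without these libraries (0.92 within day 2). G6pc had r = −0.76 with the periportal list (rho = −0.71, exact permutation p = 0.0972 and 0.136, adjusted p = 0.389 and 0.350), but −0.24 without them, so that relation rests on those 2 libraries (−0.96 within day 2, both included). With the pericentral list G6pc had r = 0.72 (rho = 0.66, exact permutation p = 0.05 and 0.175, adjusted p = 0.326 and 0.350). That r was −0.19 without KO 4 and KO 5 and 0.90 within day 2, both included.

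By likeness over the 6 libraries, among 11708 other genes with a mean of at least 1 CPM, the closest to G6pc were H6pd, which encodes hexose-6-phosphate dehydrogenase of the endoplasmic reticulum (r = 0.99), and Iqgap2 (r = 0.99). The closest to Pck1 were Podxl and Plk2, to Pcx Lpin2 and Map4k3, to Fbp1 the pyruvate kinase gene Pkm and Arrb1, to Slc37a4 Tspan7 and CT010467.1, to Ppargc1a Ankrd12 and Gata6, to Foxo1 Hcfc2 and Cxadr, and to Sirt1 Mis12 and Acy3. Their r ran from 0.98 to 1.00, the 2 highest of 11708 values for each gene, over 6 points.

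The steps around these genes were counted in 6 lists. Of the enzymes that gluconeogenesis shares with glycolysis, 9 of 10 were tested (Fbp2 had too few counts), 6 were higher and 3 lower in KO hepatocytes, and 0 had an unadjusted p below 0.05. Their log2 fold changes ran from −0.16 for Gpi1, the glucose-6-phosphate isomerase, to 0.16 for Pgk1, a phosphoglycerate kinase, with a median of 0.05. Pgk1 was at 0.0017 without control 2 and 0.35 without control 3, and Gpi1 at 0.028 without control 3 and −0.38 without KO 5. Of 16 genes that bring in substrates, 8 were higher and 8 lower, 0 passed, and the median was −0.01. Mdh1, the cytosolic malate dehydrogenase, had the largest positive value, at 0.17, and Ldhb, a lactate dehydrogenase subunit, the largest negative one, at −0.54, with 0.91, 0.99 and 0.69 CPM in the control and 0.47, 0.65 and 0.67 CPM in the KO libraries. Its genotypes did not overlap, as for 10.6% of all genes tested in either direction. Its level was below 1 CPM, and its unadjusted p was 0.138 in edgeR. Mdh1 was at 0.03 without control 2 and −0.012 with the index series of the libraries as a further term, and Ldhb at −0.36 without control 1 and −0.12 with the index series.

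Of 12 genes of glucagon and cAMP signalling, 5 were higher and 7 lower, with a median of −0.10, and 2 had an unadjusted p below 0.05. Creb3l3, a liver transcription factor of the CREB family, had 185, 155 and 150.1 CPM in the control and 149, 133 and 118 CPM in the KO libraries (log2 fold change −0.29, unadjusted p = 0.0319, edgeR). Sik2, a kinase that restrains the CREB coactivators, had 17.4, 14.1 and 11.7 against 12.7, 10.2 and 10.2 CPM (log2 fold change −0.38, unadjusted p = 0.0209, edgeR). Every KO library was below the controls for Creb3l3, Creb1 (log2 fold change −0.20) and Prkacb, a catalytic subunit of protein kinase A (−0.16), and above them for Gcgr, the glucagon receptor (0.12), whereas Prkaca, the other catalytic subunit, had the largest positive value (0.21, and 0.03 without KO 4) with overlapping genotypes. None of these passed the adjusted threshold in edgeR, all having an adjusted p of 0.998. Of all genes tested, every KO library was below the controls for 4.04% and above them for 6.54%, and 3.73% had an unadjusted p below 0.05. The unadjusted p of Creb3l3 was 0.0405 without KO 4 and between 0.0599 and 0.111 when any other library was dropped. That of Sik2 was 0.0982, 0.0659 and 0.0973 without controls 1 and 2 and KO 3.

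Of 16 further transcription factors and cofactors, 5 were higher and 11 lower, with a median of −0.11, and 0 had an unadjusted p below 0.05. The values ran from −0.44 for Ppargc1b, the paralog of Ppargc1a, to 0.19 for Hnf4a, a partner of PGC-1α at gluconeogenic promoters, and these values rested on single libraries. Ppargc1b was at −0.72 (unadjusted p = 0.00884, edgeR) without KO 5 and −0.26 without control 1, and Hnf4a at −0.12 without KO 4 and 0.46 (unadjusted p = 0.0416) without KO 5. Of 8 other genes under fasting or FOXO1 control, 2 were higher and 6 lower, with a median of −0.09. Irs2, the insulin receptor substrate, had 87.7, 72.7 and 51.2 CPM in the control and 48.5, 55.4 and 43.7 CPM in the KO libraries (log2 fold change −0.50, unadjusted p = 0.0358, edgeR), and its log2 fold change was −0.32 (unadjusted p = 0.195) without control 1, −0.40 (0.114) without control 2, −0.33 (0.198) without KO 3, −0.45 (0.0823) without KO 5 and −0.09 with the index series in the model. Tdo2, a tryptophan dioxygenase, was lower in every KO library (−0.30, unadjusted p = 0.0721, edgeR), as were 4.04% of all genes tested. Igfbp1, a secreted binding protein of insulin-like growth factors, had the largest positive value, at 0.18, and −0.11 without KO 4.

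Of 9 glycolytic genes, 7 were higher and 2 lower, with a median of 0.09 and 0 unadjusted p below 0.05. The values ran from −0.13 for Pfkfb3 to 0.47 for Pfkfb1, both bifunctional enzymes that make and break fructose-2,6-bisphosphate. Pfkfb1 had 3.41, 1.89 and 2.01 CPM in the control and 2.63, 4.58 and 2.73 CPM in the KO libraries, so that KO 4 was highest and the genotypes overlapped. Its log2 fold change was 0.12 without KO 4, 0.30 without control 2, 0.90 (unadjusted p = 0.0364, edgeR) without control 1 and 0.90 (unadjusted p = 0.0379) without KO 3. That of Pfkfb3 was 0.28 without control 1 or KO 3. The medians of the lists also moved with single libraries: from −0.11 (without control 2) to 0.22 (without control 3) for the shared enzymes, −0.06 to 0.03 for substrate entry, −0.10 to −0.03 for glucagon and cAMP signalling, −0.24 (without KO 4) to −0.02 (without KO 5) for transcription factors and cofactors, −0.20 (without KO 4) to −0.0052 (without control 1) for the other genes under fasting or FOXO1 control and −0.12 (without KO 5) to 0.32 (without control 1) for the glycolytic genes. The opposing enzymes were also compared within libraries, a choice made after their values had been seen. The log2 ratio of Fbp1 to Pfkl, the liver phosphofructokinase, was 2.47 ± 0.19 in control and 2.44 ± 0.22 in KO hepatocytes (SD, n = 3 each, exact permutation test, p = 0.9), and that of Pck1 to Pklr, the liver pyruvate kinase, 2.16 ± 0.33 and 2.01 ± 0.21 (p = 0.6, same exact test). The genotypes overlapped in both ratios.

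**Figure D5:**
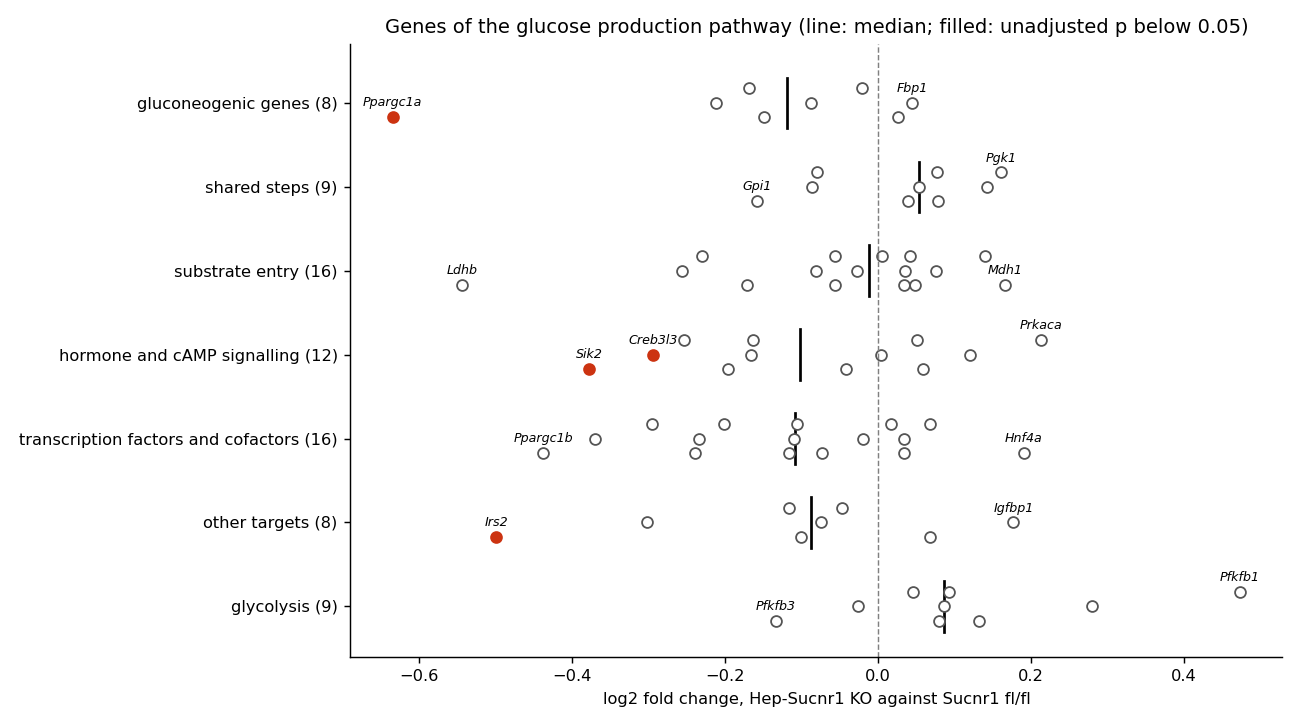
Log2 fold change of KO against control for the 8 gluconeogenic genes and for each gene of the 6 pathway lists (number tested in brackets), with the list's median as a line and filled points for an unadjusted p below 0.05. With all 6 libraries the medians lie between −0.12 and 0.09, and Ppargc1a, at −0.63, is the lowest point.

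Other gene lists were also compared between the genotypes, and their part in the values of the gluconeogenic genes was not tested. They held 0 genes past the adjusted threshold in edgeR. Of all genes tested, 3.73% had an unadjusted p below 0.05 and 49.5% had a log2 fold change below 0. The lists were chosen with earlier results of these data known, so setting their counts beside these shares is no test. Acute phase genes were higher in KO hepatocytes in 7 of 7 cases (6 with an unadjusted p below 0.05), with summed levels of 13188 to 14995 CPM in control and 17460 to 19594 CPM in KO libraries. Clock genes were lower in 8 of 10 cases (4 of the 10 with an unadjusted p below 0.05), with sums of 656 to 896 CPM and 594 to 654 CPM. The clock genes did not move together, with log2 fold changes from −0.98 to 1.12. Ppargc1a, like 4.04% of all genes tested, was lower in every KO library than in any control, and its relation to these lists was not tested. Kupffer cell markers were lower in 8 of 8 cases with 0 unadjusted p below 0.05, and their sums, 28.5 to 104 and 5.92 to 89.0 CPM, overlapped. The pericentral list was higher in 7 of 7 cases (median log2 fold change 0.50) and the periportal list lower in 6 of 7 (median −0.07), each with 0 unadjusted p below 0.05 and overlapping sums, 2295 to 3410 against 1518 to 5981 CPM and 3192 to 5020 against 3065 to 5059 CPM. In bulk libraries a smaller share of a cell type and less RNA per cell cannot be told apart.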

How the data were processed

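RNA-seq was done on cultured hepatocytes, 3 libraries per genotype, and genotype, replicate number and extraction day were taken from the labels. The authors trimmed stranded paired-end reads with Trim Galore 0.6.7, aligned them to GRCm38 with STAR 2.7.10a, counted read pairs per gene of Ensembl 102 with featureCounts, using strand, and deposited the raw counts per gene. How pairs matching several genes were counted is not given in the sources used here. The deposited counts are not normalized, and intervals of the fits cover the spread between mice.

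A gene was tested if its counts, scaled by DESeq2's size factors, averaged above 5. CPM and log2 CPM (prior count 2) used TMM factors, and genotype and extraction day were tested in 1 model with the quasi-likelihood test of edgeR 4.0.16 (R 4.3.3), adjusted by Benjamini-Hochberg, with 0.05 as threshold. The common biological coefficient of variation was 0.206. Exact permutation tests over libraries, two-sided, served for single values. Exon lengths came from GENCODE M21, of the same build, and promoters from RefSeq. Of the identifiers, 25096 had a symbol and 88 had none.

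The genes named are the 8, Sucnr1, in each pathway list the genes with the largest positive and negative log2 fold change, with non-overlapping genotypes or with an unadjusted p below 0.05, and for each of the 8 the 2 most alike genes. The 8 genes and all lists were chosen with earlier results of these data known. 1 gene of the glycolytic list is not reported here and was left out of that list. Lists of sinusoidal endothelial, stellate, cholangiocyte, and neutrophil and erythroid markers summed to at most 48.1, 34.9, 651 and 14.8 CPM in a library, and 1 of their 24 genes tested had an unadjusted p below 0.05 for genotype (edgeR). Libraries contained Y-linked and no Xist RNA beyond 1 count.

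Alternatives covered DESeq2 1.42.0, other scalings, filters and covariates, a robust fit, day 2 alone and leaving out each library. In data simulated for the genotype comparison over 14888 genes, edgeR called 66 of 100 genes changed by a log2 fold of 1. It called 96 of 100 changed by 2 and 6 of 14688 unchanged genes. The changes were placed only in genes with a mean count well above the filter, and no day difference was simulated. The shares thus cannot be carried over to these data, where Sucnr1, at a log2 fold change of −2.23, had an adjusted p of 0.998 in edgeR.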

Additional observations from a re-analysis of the deposited data

How the results depend on the processing

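Over the 15 alternatives, 0 of 120 fits of the 8 genes passed an adjusted p of 0.05, the lowest being 0.734. The DESeq2 fits of Ppargc1a, Foxo1 and Sirt1 are among the 120 but had no adjusted p. In all 15, 4 genes (Pcx, Ppargc1a, Foxo1, Sirt1) kept their direction for genotype. Genes past the threshold for genotype were 13 with DESeq2 and 0 in each other alternative. For extraction day they were 227 with DESeq2, 122 with no filter on low counts and 0 to 29 with a library left out (29 without control 2). Of the 8 genes, the number with an unadjusted p below 0.05 for genotype was 0 with the index series as a further term and with the day 2 libraries alone. It was 0 without controls 1 or 3 or KO 3. Without control 2 it was 1, Foxo1, without KO 4 it was 1, G6pc, and without KO 5 it was 1, Ppargc1a. Their unadjusted p in those fits of edgeR was 0.0473, 0.0291 and 0.00950. For Ppargc1a the log2 fold change was −0.58 with the index series (unadjusted p = 0.213, edgeR) and −0.47 on day 2 alone (unadjusted p = 0.200). DESeq2 gave it −0.66 with an unadjusted p of 0.0395 and no adjusted p.

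The other 4 genes changed direction. With the index series the log2 fold change was 0.15 for G6pc, −0.16 for Fbp1, −0.16 for Pgk1 and −0.012 for Mdh1. With the day 2 libraries alone it was 0.015 for G6pc, 0.15 for Pck1 and 0.28 for Pfkfb3, and with library size alone −0.0085 for Slc37a4. With a library left out it ranged from −0.45 to 0.025 for G6pc, −0.19 to 0.16 for Pck1, −0.11 to 0.17 for Fbp1 and −0.11 to 0.21 for Slc37a4. It was above 0 for Pck1 without control 1 (0.16) or 3 (0.025) or KO 3 (0.15) or 4 (0.04). It was below 0 for Fbp1 without control 2 (−0.11) or KO 5 (−0.07), and for Slc37a4 without control 2 (−0.0058) or 3 (−0.06) or KO 5 (−0.11). It stayed below 0 for Pcx (−0.12 to −0.06), Ppargc1a (−0.90 to −0.47), Foxo1 (−0.27 to −0.17) and Sirt1 (−0.25 to −0.10). The range was −0.38 to 0.028 for Gpi1, −0.12 to 0.46 for Hnf4a, −0.11 to 0.36 for Igfbp1 and −0.39 to 0.28 for Pfkfb3. The day difference ranged from −0.20 to 0.36 for G6pc, −0.33 to 0.24 for Pck1, −0.21 to 0.12 for Fbp1 −0.56 to 0.037 for Slc37a4, −0.57 to −0.03 for Ppargc1a and −0.44 to −0.29 for Foxo1. The median of the enzymes shared with glycolysis was −0.22 with the index series. The cause of these changes was not tested.

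No paired analysis was possible because the genotypes share only replicate number 3. The index series holds controls 1 and 2 against the other 4 libraries, so it is partly confounded with genotype. The 5 pathway genes had at least 1322 counts in each library and Ppargc1a 53 to 157, and the effect of depth on the fits was not tested.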
